A study of Mus musculus with 10 samples.

Results

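The squamous lineage transcription factors examined here are 10 genes whose products switch on and maintain the program of stratified squamous epithelium: Trp63, Sox2, Pitx1, Klf5, Tfap2a, Tfap2c, Grhl1, Grhl3, Ovol1 and Zfp750. They were measured on Agilent whole-genome mouse microarrays with 1 colour and 1 array per sample, in 5 lungs of wild type mice (WT, Lkb1f/f) and 5 lung squamous cell carcinomas (SCC) of CCSPiCreLkb1f/f mice. All mice were 13 months old, were of the B6.129 strain and had received no special treatment. Both groups carried the floxed alleles of Lkb1, the gene of a tumour suppressor kinase also called Stk11, and only the SCC mice carried CCSPiCre, a transgene that expresses Cre from the CCSP promoter in airway epithelium, which by the study's account includes basal cells of the proximal airway as well as club cells. The control RNA came from whole lung and the SCC RNA from whole lung tumour, so the tumours were compared with normal lung of all cell types and not with normal squamous or airway basal cells. In such bulk RNA, fewer cells of a type and less RNA per cell cannot be told apart. Members were found by matching the accession that each array probe carries to a RefSeq gene symbol. Of the 10 genes, 9 had a probe, out of 19096 genes with a probe in all, and the 9 genes had 13 probes, of which 12 were bright enough to be tested. No probe was paired with Grhl3, which is not analysed here, nor with the floxed Stk11 itself.

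p63, the product of Trp63, is the transcription factor that basal cells of stratified epithelia depend on, and SOX2, which often acts beside it, is also used by normal airway epithelium. KLF5, the AP-2 factors (Tfap2a, Tfap2c) and PITX1, a homeobox factor known from hindlimb development, take part in keratinocyte and squamous tumour programs. Grainyhead-like factors (Grhl1, Grhl3) and ZFP750 switch on genes of the later steps, in which cells leave the basal layer and build the cornified envelope, and OVOL1 is a zinc finger repressor active as progenitor cells stop dividing.

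Of the members, 4 had an entry in the RefSeq promoter table (Sox2, Grhl1, Grhl3 and Tfap2a, 6 windows, build GRCm38.p6). These windows, from 250 bases before to 50 after the start, were searched on both strands for letters bound by some of the members' own families. No letters for KLF5 or ZFP750 were searched. The letters were GCCNNNGGC for AP-2 factors, AACCGGTT for grainyhead-like factors, CCGTTA for OVOL, TAATCC for PITX, ACAATG for SOX and, for p63, a pair of CATG cores separated by 6 bases. A single match was found, an AP-2 match that starts 82 bases before the start of Grhl1 and is given in capitals below, and 16.6% of all 32851 promoter windows of 300 bases hold at least 1 AP-2 match. The other motifs occur in 0.146% (grainyhead-like), 0.712% (p63), 2.76% (OVOL), 7.06% (PITX) and 12.6% (SOX) of those windows. The 250 bases before the start of Grhl1, the member that varied most between tumours among those measured on all arrays, and of Sox2, for which the tumour low in Grhl1 was the highest and which held no match, read 5′ to 3′ as follows, at chr12:24572037-24572286 (plus strand) and chr3:34649745-34649994 (plus strand).
Grhl1: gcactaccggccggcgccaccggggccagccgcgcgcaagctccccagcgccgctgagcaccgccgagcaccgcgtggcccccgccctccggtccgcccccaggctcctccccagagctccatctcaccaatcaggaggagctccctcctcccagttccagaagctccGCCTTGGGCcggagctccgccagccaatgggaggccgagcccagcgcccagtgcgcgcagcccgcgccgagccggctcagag
Sox2: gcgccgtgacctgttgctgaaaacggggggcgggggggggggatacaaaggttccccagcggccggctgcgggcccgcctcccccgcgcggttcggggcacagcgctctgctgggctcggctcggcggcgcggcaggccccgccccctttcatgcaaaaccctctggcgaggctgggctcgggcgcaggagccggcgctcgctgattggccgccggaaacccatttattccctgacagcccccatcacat
A match or its absence describes these letters in this window and was not linked to the expression values.

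The arrays were compared with each other before the members were read. Between 71.0% and 74.4% of probes were well above background on 9 arrays and 90.2% on SCC replicate 5, whose median processed signal was 263 against 125 to 180 on the others. SCC replicate 2 stood apart in its expression. Marker sums are given in units of 1000 of the linear normalized signal. A sum was taken of 6 squamous markers (Krt5, Krt14, Krt6a, Dsg3, Sprr1b and Ivl). It was 0.151 to 0.228 in WT, 359 to 434 on the other SCC arrays and 71.9 on SCC replicate 2. That tumour was thus the lowest of the 5 and far above every lung. The brightest of the 6 markers there were Krt5 (15.60 log2 units) and Krt14 (14.34). Sprr1b read 1.86 there, within the WT range of 1.81 to 3.34, so the sum does not settle the squamous label of that tumour. SCC replicate 2 was also the only SCC array with low Xist, the transcript of the inactive X chromosome, at 2.58 log2 units against 13.75 to 14.19, and with the Y-linked Eif2s3y at 11.66. WT replicates 2 and 3 had the same pattern (Xist 4.33 and 2.27), and SCC replicate 5 had Xist at 13.75 together with Eif2s3y at 8.64; the labels give no sex. RNA of lung cells was measured in all 5 tumours. Of 7 alveolar type 2 markers, 5 passed the adjusted p of the test described below as lower in SCC and 0 were at least 2-fold lower. Sftpc read 18.80 on every WT array (SD 0), since quantile normalization gives equal ranks equal values. This limits how far a difference in it (-0.16) can be seen. Napsa, the marker of these with the largest difference (-0.98), read 14.39 to 14.85 in WT and 13.49 to 13.96 in SCC. All 6 endothelial markers and 3 of 4 club cell markers were called lower. Slide and group overlapped only in part. The first of the 3 slides carried 4 WT arrays (replicates 1 to 4), the second WT replicate 5 together with SCC replicates 1, 2 and 3, and the third the remaining pair of tumours.

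All 9 measured members were higher in SCC than in WT. On the log2 scale the differences ran from 2.17 for Tfap2a to 11.26 for Pitx1, and the lowest SCC array lay above the highest WT array for each of the 9. A probe was tested where it was well above background on at least 4 arrays of either group. Of the members, 7 met this in both groups, while Pitx1 and Tfap2c met it through the SCC arrays alone and so had to differ. For these and for the other genes tested through SCC alone the differences and bounds are given as a description, and no p-value of theirs is given as support. A probe was called changed where limma's Benjamini-Hochberg adjusted p over all 30374 tested probes was below 0.05 and the difference at least 2-fold, and of the tested probes 9.92% were called higher and 13% lower, 22.9% in all. Every SCC array lay above every WT array for 16.3% of tested probes. The median difference over all tested probes was -0.09. In the exact two-sided permutation test of the 5 against 5 arrays each of these 7 members gave p = 0.00794, the smallest that 5 against 5 arrays allow. All 7 members tested through both groups were called higher, with a median difference of 3.02, and all 7 were also called without SCC replicate 2, without SCC replicate 5 and without both. With slide as a fixed block 6 of the 7 were, all except Grhl1, in a fit that rests on the single WT array of slide 2.

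**Figure D1:**
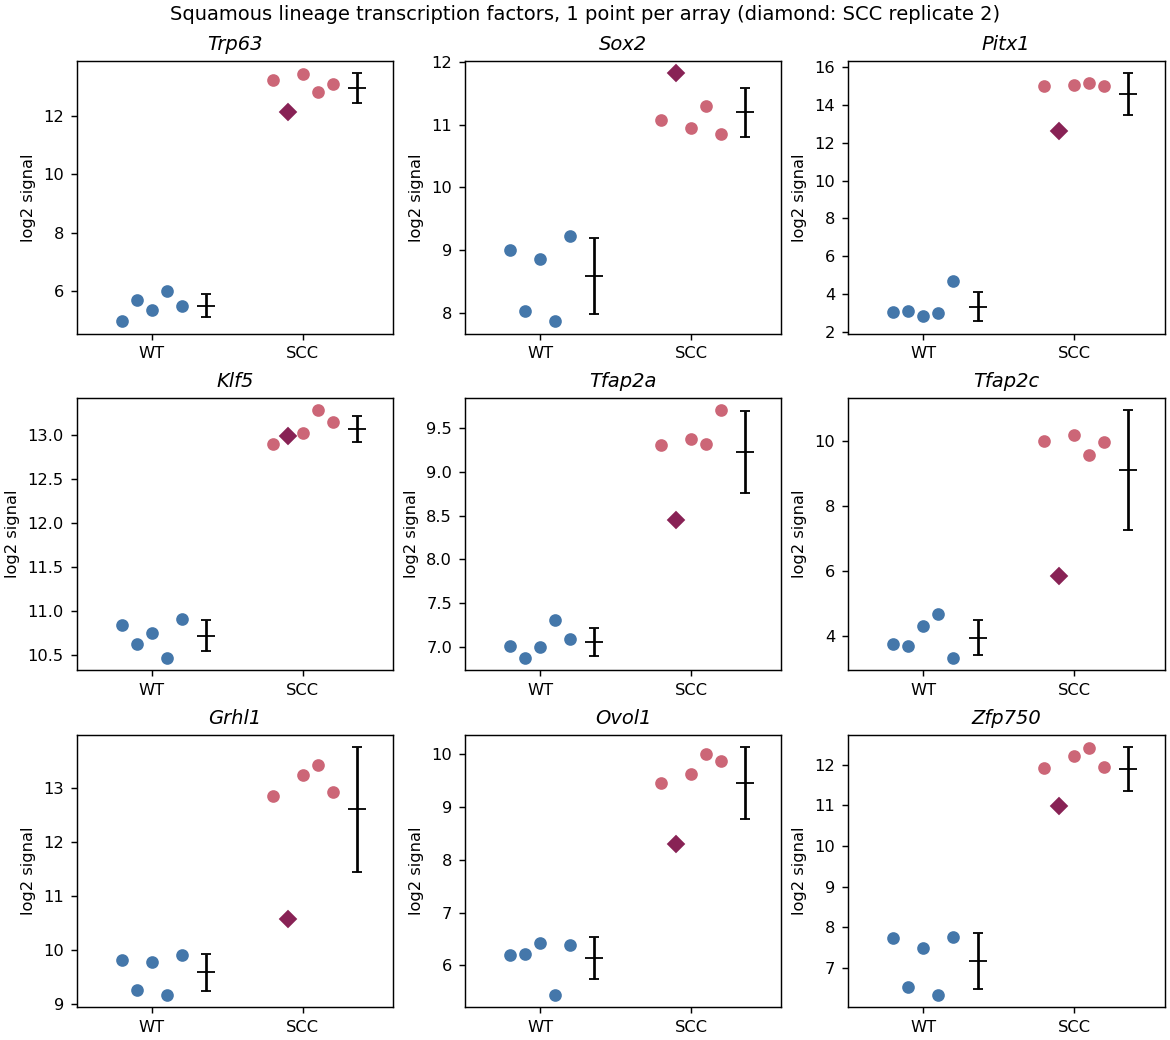
Log2 quantile-normalized signal of the 9 measured members on each array, WT (blue) and SCC (red, with SCC replicate 2 as a dark diamond), with the mean ± SD (n = 5 each) in black; each panel has its own axis. In every panel all SCC arrays lie above all WT arrays, and SCC replicate 2 is the lowest SCC array in 7 panels and the highest for Sox2.

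Trp63 was one of the genes furthest apart between the groups. Its brighter probe read 4.97, 5.70, 5.35, 6.0 and 5.50 log2 units on WT replicates 1 to 5, and 13.24, 12.13, 13.45, 12.82 and 13.10 on SCC replicates 1 to 5. The tumours differed among themselves by little over 1 unit, against 7.44 units between the groups (95% confidence interval 6.85 to 8.04, limma adjusted p = 2.1e-07), and 57 of 30374 tested probes had a larger difference. With normexp background correction the difference was 5.48 and passed. The dimmer Trp63 probe was well above background on 0 of 5 WT and 5 of 5 SCC arrays, with measured means of 1.96 and 5.68. It was tested through SCC alone, and its SCC signal was at least 3.12-fold above the background floor of the WT arrays (fitted difference 3.72, and 0.72 with normexp background correction), the floor being the lowest signal among probes well above background on an array. The isoforms that each probe reads, among them ΔNp63, were not told apart.

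Sox2 was present in normal lung and rose further. WT replicates read 9.0, 8.04, 8.86, 7.88 and 9.22, and SCC replicates read 11.07, 11.81, 10.94, 11.29 and 10.85. SCC replicate 2, the lowest tumour for most members, was the highest for Sox2. The difference was 2.59 (95% confidence interval 1.93 to 3.25, adjusted p = 9.8e-05), a 6.03-fold rise, and 2.44 without SCC replicate 2 (adjusted p = 0.00011).

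Pitx1 had the largest difference of the members. It was near background in normal lung, at 3.03, 3.10, 2.80, 3.00 and 4.69 on WT replicates 1 to 5, and well above background on 1 of these arrays, WT replicate 5. On SCC replicates 1 to 5 it read 15.03, 12.63, 15.08, 15.18 and 15.00. All 5 tumours thus stood far above every lung, with SCC replicate 2 the lowest. The fitted difference was 11.26 (95% confidence interval 10.04 to 12.48), 9.55 with slide as a fixed block and 7.76 with normexp background correction. Since 4 WT values were below background, the fold was also taken with each WT array at no less than its own background floor, which gave 1416-fold.

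Klf5 had the smallest SD among the tumours (0.149) and the smallest SE of the difference of the members. WT replicates read 10.84, 10.62, 10.75, 10.46 and 10.91, and SCC replicates read 12.91, 12.99, 13.03, 13.29 and 13.15. SCC replicate 2 lay within the range of the other tumours, unlike for any other member. The difference was 2.35 (SE 0.11, adjusted p = 1.2e-06), a 5.11-fold rise.

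Of the AP-2 pair, Tfap2a was measured in every lung and Tfap2c hardly in any. Tfap2a read 7.02, 6.88, 7.0, 7.30 and 7.09 in WT and 9.31, 8.45, 9.37, 9.31 and 9.70 in SCC, a difference of 2.17 (SE 0.21, adjusted p = 3.9e-05). Its dimmer probe was well above background on 0 WT and 1 SCC array and was not tested. Tfap2c read 3.78, 3.69, 4.31, 4.68 and 3.34 in WT, where 1 of 5 arrays was well above background, and 9.98, 5.84, 10.16, 9.54 and 9.96 in SCC. SCC replicate 2 was thus much nearer to the lungs than to the other tumours. The difference was 5.14 (SE 0.78) and 5.95 without SCC replicate 2. With slide as a fixed block it was 5.31 and did not pass (adjusted p = 0.054). Against the WT background floor the SCC signal was 29.3-fold higher. With normexp background correction the difference was 2.51.

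Grhl1 split the tumours more than any member measured on all arrays. WT replicates read 9.80, 9.26, 9.76, 9.17 and 9.90, and SCC replicates read 12.85, 10.57, 13.23, 13.42 and 12.92. SCC replicate 2 exceeded the highest lung by under 1 unit and lay over 2 units below every other tumour. The difference was 3.02 (SE 0.49, adjusted p = 0.00079), 3.53 without SCC replicate 2 (adjusted p = 1.1e-06), and 2.32 with slide as a fixed block, where it did not pass (adjusted p = 0.128). The dimmer Grhl1 probe gave a difference of 3.00 (adjusted p = 0.0011), with SCC replicate 2 again apart at 9.53, where the other SCC arrays read 12.09 to 12.51. In the fit with slide as a fixed block this probe differed by 2.24 and did not pass (adjusted p = 0.153).

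Ovol1 and Zfp750 lay between these patterns. Ovol1 read 6.19, 6.22, 6.43, 5.45 and 6.38 in WT and 9.46, 8.29, 9.63, 10.01 and 9.88 in SCC, a difference of 3.32 (SE 0.33, adjusted p = 4.3e-05), and its dimmer probe differed by 2.61 (adjusted p = 9.7e-05); with normexp these were 2.14 and 1.5 and passed. Zfp750 read 7.72, 6.53, 7.49, 6.34 and 7.75 in WT and 11.93, 11.00, 12.22, 12.41 and 11.94 in SCC, a difference of 4.73 (SE 0.36, adjusted p = 1.1e-05) or 26.6-fold. The Zfp750 difference was smaller with slide as a fixed block (3.97) and with normexp (3.70), and passed in both. For both genes SCC replicate 2 was the lowest tumour and still clearly above every lung.

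**Figure D2:**
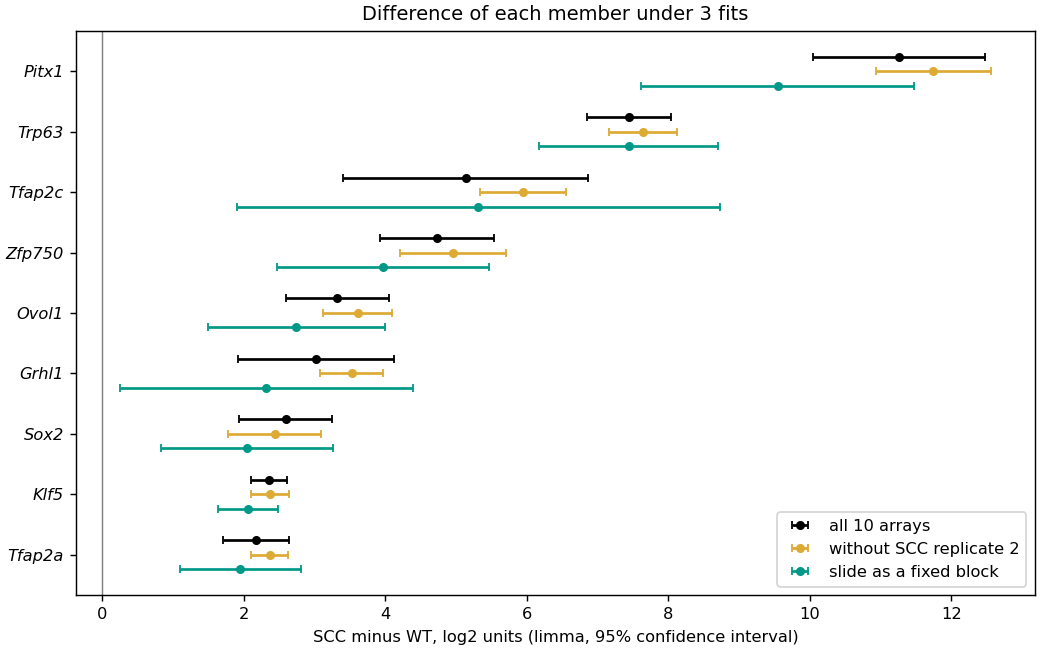
Difference between SCC and WT (log2 units, point) with its 95% confidence interval (bar) for each member, over all 10 arrays (black), without SCC replicate 2 (yellow) and with slide as a fixed block (green). No interval reaches 0, and those of Tfap2c and Grhl1 narrow most when SCC replicate 2 is left out.

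The members differed in how far SCC replicate 2 had moved from normal lung. Its position was taken as the share of the log2 distance from the WT mean, at 0%, to the mean of the other 4 tumours, at 100%. Sox2 was at 132%, Klf5 at 95.6%, Trp63 at 86.6%, Pitx1 at 79.2%, Zfp750 at 77.3%, Ovol1 at 59.8%, Tfap2a at 58.8%, Tfap2c at 31.5% and Grhl1 at 28.2%. Grhl1 and Tfap2c were thus nearer to the lungs than to the other tumours in this SCC. The share depends on the size of the whole distance, and the log2 difference between SCC replicate 2 and the mean of the other tumours was 0.77 for Sox2, -0.10 for Klf5, -0.97 for Tfap2a, -1.03 for Trp63, -1.13 for Zfp750, -1.45 for Ovol1, -2.44 for Pitx1, -2.53 for Grhl1 and -4.07 for Tfap2c. The other 4 tumours were between 89.7% and 116% for all 9 members. Over the 3014 probes called higher, the median position of SCC replicate 2 was 51.4% (quartiles 22.6% and 85.5%), and it was the lowest SCC array for 71.2% of them, against 7 of 9 members. This ordering rests on 1 tumour and has no replicate and no test.

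The genes that these factors are known to accompany were read from lists of the basal and of the cornified program. Of the p63 and basal program, 16 of 18 genes were tested, 10 were called higher and 1 lower, with a median difference of 2.38; of the 15 tested through both groups, 9 were called higher, with a median of 2.22. The largest were the desmosomal plakophilin Pkp1, above background on no WT array and at least 2075-fold higher in SCC (fitted difference 12.55), and the basal keratins Krt5 (11.35, adjusted p = 2.1e-07) and Krt14 (10.40, adjusted p = 1.8e-06). With normexp these differences were 8.21, 9.76 and 9.13. Among the smallest were podoplanin (Pdpn), a mucin-type protein that alveolar type 1 cells also make, which fell by 1.30 (adjusted p = 0.00013; just under 2-fold with normexp, and then not called), and the laminin chain Lama3 (-0.42, adjusted p = 0.016), which was not called. The genes of this list that were called higher had SCC replicate 2 at a median position of 86.5%, from 53.2% to 127%.

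Of the late squamous differentiation list, 17 of 20 genes were tested and 15 were called higher, with a median difference of 2.75. Since 7 of these 17 were tested through SCC alone, the 10 others are given apart: 8 were called higher, with a median difference of 2.18. Krtdap, a protein of differentiating keratinocytes, was above background on 1 of 5 WT arrays and was 238-fold higher in SCC against the WT background floor (fitted difference 8.67, and 5.50 with normexp). The small proline-rich protein Sprr1b was above background on 0 of 5 WT and 4 of 5 SCC arrays and was at least 14.1-fold higher (fitted difference 5.71, and 2.31 with normexp). On SCC replicate 2 it read 1.86, within the WT range, and without that array the fitted difference was 7.21. Cornifelin (Cnfn) differed by 5.03 (adjusted p = 0.018). The smallest differences were those of Krt1, a keratin of suprabasal skin (1.16, adjusted p = 0.019), and of Alox12b (0.94, adjusted p = 0.030) and Sbsn (0.41, adjusted p = 0.178), which were not called. Krt1 was not called with normexp (0.38, below 2-fold) nor with the slide block, where it differed by 0.57 (adjusted p = 0.561). With normexp 11 late genes were called higher. SCC replicate 2 was at a median position of 9.67% over the genes called higher, from -21.6% to 83.4%, and of these 15 genes it lay within the range of the WT arrays for 6 and below it for 2 (Cnfn and Ppl). Cnfn read 7.35 on SCC replicate 2 and 15.11 to 15.85 on the other tumours. Krtdap read 5.61 there against 13.47 to 13.98. Krt5 and Krt14 were also lower on SCC replicate 2 than on the other tumours, by log2 differences of -1.95 and -2.94, and involucrin (Ivl), a cornified envelope protein, was at 64.6% of the distance, beside 83.4% for Krt5 and 73.2% for Krt14. With slide as a fixed block 10 basal genes and 1 late gene were called higher. Of these, the basal Pkp1 and the late gene, Ivl, were tested through SCC alone. Among genes tested through both groups the counts were 9 basal and 0 late.

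**Figure D3:**
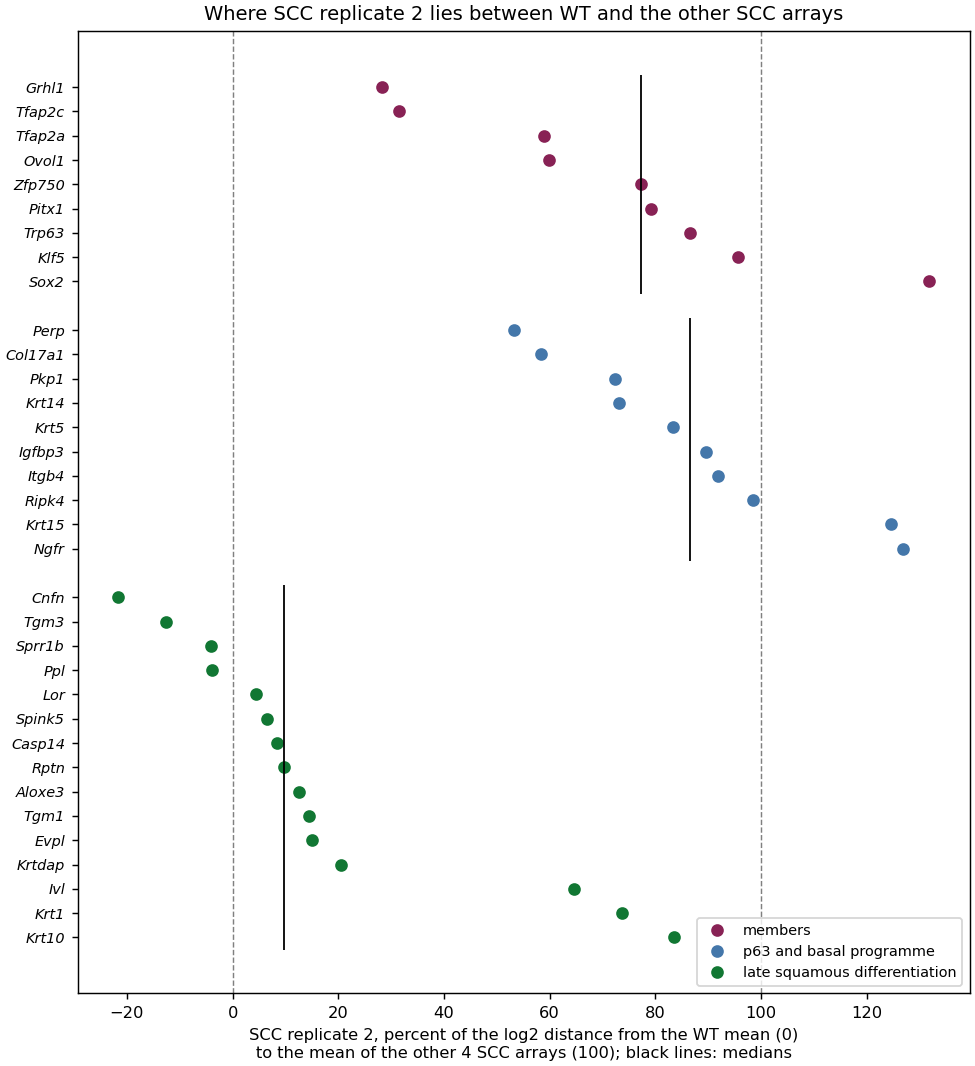
Position of SCC replicate 2 on the log2 scale between the WT mean (0%) and the mean of the other 4 SCC arrays (100%), for the 9 members and for the genes called higher of the basal and the late differentiation list, with medians as black lines. Medians are 77.3% for the members, 86.5% for the basal list and 9.67% for the late list.

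The neutrophil markers S100a8, S100a9, Csf3r, Cxcr2 and Retnlg moved with the same tumour. Their summed signal was 16.9 (in units of 1000) on SCC replicate 2, 108 to 119 on the other SCC arrays and 27.1 to 47.5 in WT. The sum of the 6 endothelial markers was 70.0 on SCC replicate 2, the highest SCC array, against 35.0 to 43.9 on the other tumours and 173 to 235 in WT. The part of cell makeup and of sex in the position of SCC replicate 2 was not tested.

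Close relatives of the members were not all changed in the same way. Of 12 relatives 11 were tested, 6 were called higher and 0 lower, with a median difference of 1.11; of the 10 tested through both groups 5 were called higher, with a median of 0.87. Sox21 differed by 7.53 (4.01 with normexp) and was above background on no WT array, so that it was at least 127-fold higher, and Sox9, a factor of lung progenitors and cartilage, differed by 5.11 (adjusted p = 3.2e-06; 3.46 with normexp). Sox15, Grhl2, Tfap2b and Tfap2e were higher by 1.56, 1.32, 1.17 and 1.11. With normexp Sox15 (0.98) and Tfap2b (0.34) fell below 2-fold, and 4 relatives were called higher. In the fit with the slide block 3 were, without Sox15 (1.31, adjusted p = 0.1), Tfap2b (0.57, adjusted p = 0.448) and Tfap2e (0.81, adjusted p = 0.171). Klf3 (0.58, adjusted p = 0.0027) and Ovol2 (0.62, adjusted p = 0.011) passed the adjusted p without reaching 2-fold, a threshold that 22.4% of tested probes passed as higher and 26.6% as lower. Klf4, a Krüppel-like factor of differentiating epithelium, read 15.33 to 15.93 in WT and 14.01 to 15.10 in SCC, a difference of -0.88 (adjusted p = 0.0077), and Klf6 differed by -0.73 (adjusted p = 0.0026), both lower without reaching 2-fold. Trp73, the p63 relative of ciliated cells, differed by 0.64 and did not pass (adjusted p = 0.18), and it was at -0.40 with slide as a fixed block. Without SCC replicate 5, 4 relatives were called higher, since Tfap2b and Tfap2e were then higher by 0.98 and 0.99, below 2-fold.

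Members were set against a relative of the same gene family within each array, which tests unequal change and not level, over 6 pairs with Benjamini-Hochberg adjustment. Trp63 rose by 6.81 more than Trp73, Klf5 moved by 3.24 more than Klf4, and Ovol1 rose by 2.70 more than Ovol2. Tfap2c rose by 2.96 more than Tfap2a (difference -2.96 as Tfap2a minus Tfap2c), and Sox9 by 2.51 more than Sox2 (-2.51 as Sox2 minus Sox9). In these 5 pairs the groups did not overlap, and in the pairs of Trp63, Klf5, Ovol1 and Sox2 the exact permutation p was 0.00794, adjusted 0.00952. Tfap2c was tested through SCC alone and was well above background on 1 of 5 WT arrays, so its pair is given with no p. Against the WT background floor its SCC signal was 29.3-fold higher. With normexp the difference was -0.91 for Tfap2a minus Tfap2c, -1.23 for Sox2 minus Sox9 and 1.67 for Ovol1 minus Ovol2. Grhl1 rose by 1.70 more than Grhl2, with overlapping groups and an exact permutation p of 0.0476, adjusted 0.0476, and the pair did not pass without SCC replicate 1, 3, 4 or 5 (adjusted p up to 0.0873). On SCC replicate 2 the Grhl1 minus Grhl2 value was -1.52, below every lung, and on the other tumours it was 1.04 to 1.79. That tumour had the highest Grhl2 of all arrays (12.09), beside the lowest Grhl1 of the tumours.

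Transcription factors of the lung lineage went in both directions. Of 10 tested, 2 were called higher and 4 lower, with a median difference of -0.68; of the 9 tested through both groups 1 was called higher and 4 lower, with a median of -0.85. Nkx2-1, the master factor of lung epithelium, read 12.42 to 12.62 in WT and 12.17 to 12.44 in SCC (-0.21, adjusted p = 0.0635). Foxa1, a forkhead factor of airway and other endoderm, was higher by 1.48, and Foxa3, a relative in liver and mucous cells, by 1.97; Foxa3 was above background on no WT array, at least 3.41-fold higher in SCC, and at 8.75 on SCC replicate 2 against 4.37 to 5.61 on the other tumours. Without SCC replicate 2 Foxa3 differed by 1.25, with normexp it differed by 0.59 and did not pass (adjusted p = 0.155), and without SCC replicate 1 or 3 or any single WT array 1 lineage factor, Foxa1, was called higher. The mesenchymal factor Tbx4 (-2.12), the ETS factor Etv5 (-1.77; -1.02 with normexp), the endothelial Sox17 (-1.64) and Gata6 (-1.61) were lower. In the fit with the slide block Tbx4 alone was called, and Etv5 (-1.13, adjusted p = 0.225), Sox17 (-1.47, adjusted p = 0.0827), Gata6 (-1.33, adjusted p = 0.25) and Foxa1 (0.89, adjusted p = 0.131) did not pass. Gata6 read 12.57 on SCC replicate 2, within the WT range, and 10.49 to 11.09 on the other tumours. Foxa2 (-0.85, adjusted p = 0.044) was not at 2-fold. It read 14.03 on SCC replicate 2 and 12.02 to 12.71 on the other tumours, and without SCC replicate 2 it was called lower (-1.16, adjusted p = 0.00016). Cebpa (0.32) and the ciliated cell factor Foxj1 (-0.51) did not pass.

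General epithelial genes rose too. Of 12 genes 10 were called higher and 0 lower, with a median difference of 2.02 and a median position of SCC replicate 2 of 92.8%, lowest for Cldn4 (39.4%). Of the 10 genes called higher, SCC replicate 2 was the lowest tumour for 5 (Cldn4, Elf3, Esrp1, Rab25 and St14) and the highest for 4 (Epcam, Krt18, Cldn7 and Ehf). The tight junction gene Cldn4 (4.91), the ETS factors Elf3 (4.01) and Ehf (3.39), Rab25 (2.36), the splicing factors Esrp2 (2.17) and Esrp1 (1.94), the protease St14 (2.09), Epcam (1.74), Cldn7 (1.49) and Krt18 (1.00) rose. With slide as a fixed block 8 were called higher, without Cldn4 (4.04, adjusted p = 0.0697) and Krt18 (1.14, adjusted p = 0.159). Without SCC replicate 2 Krt18 was below 2-fold (0.77), and with normexp Cldn4 differed by 2.83 and Krt18 by 0.99. Cdh1 differed by 0.77 (adjusted p = 0.00016), below 2-fold, and Krt8 by 0.59 (adjusted p = 0.115). How much of each member's rise came with a larger share of epithelial cells in the tumours was not tested.

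**Figure D4:**
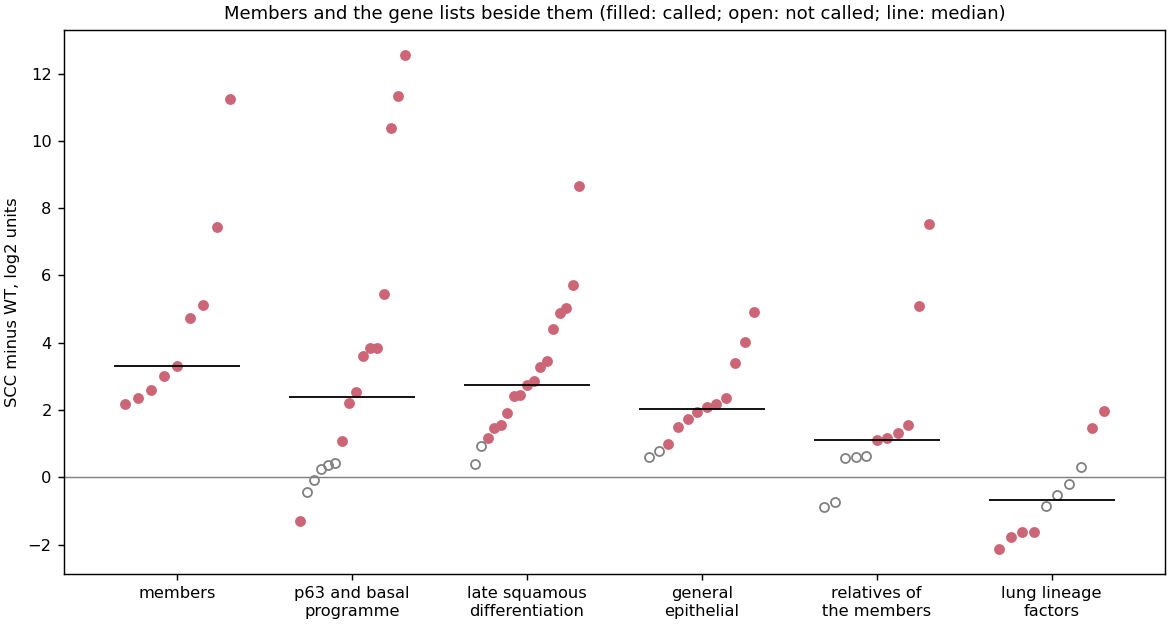
Difference between SCC and WT (log2 units) for the members and the 5 gene lists, 1 point per tested gene, filled where the gene was called and open where it was not, with the median as a line. All 7 members tested through both groups are called higher, and Pitx1 and Tfap2c, tested through SCC alone, are drawn with them; the relatives and the lung lineage factors spread around medians of 1.11 and -0.68 over all tested genes.

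The members with signal in normal lung varied among the WT arrays, and several did so together. Sox2, Klf5, Grhl1 and Zfp750, 4 of 9 members, had their lowest WT values on WT replicates 2 and 4, as had 13.6% of tested probes. The same held for 4 of 4 ciliated cell markers (Foxj1, Dnah5, Tekt1 and Rsph1) and for 3 of 4 club cell markers. Zfp750 was 0.64 and 0.83 units below its WT mean on these arrays (-0.64 and -0.83), Sox2 was at -0.56 and -0.72, and Klf5 at -0.10 and -0.25. The summed ciliated signal was 5.11 and 5.15 (in units of 1000) on WT replicates 2 and 4 and 8.26 to 14.9 on the other 3. Trp63, Tfap2a and Tfap2c were instead highest on WT replicate 4. The part of airway content in these WT levels was not tested, and cardiac muscle markers, which also varied between the lungs (13.6 to 136 in units of 1000), were lowest on WT replicate 1 and highest on WT replicate 2.

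**Figure D5:**
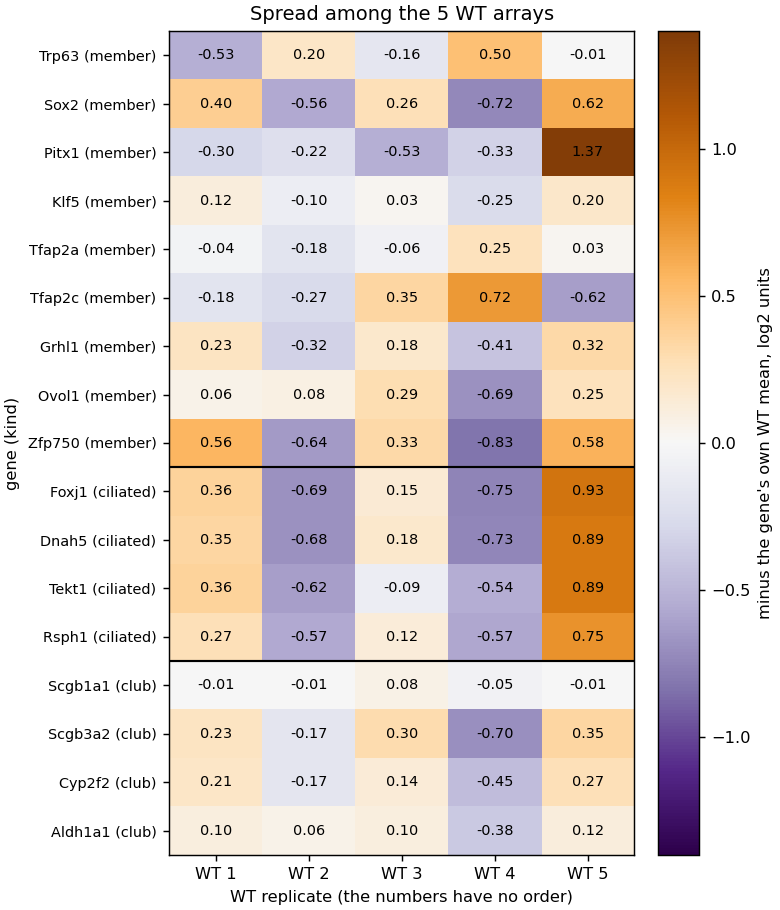
Value of each WT array minus the gene's own WT mean (log2 units, colour and printed value) for the 9 members, the ciliated markers and the club cell markers. Sox2, Klf5, Grhl1 and Zfp750 share their low values on WT replicates 2 and 4 with all 4 ciliated markers.

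For the 7 members measured on all 10 arrays, the genes with the most similar profile were found among 14102 genes, each profile taken minus its own WT mean and compared by the root mean squared difference over the 10 arrays. Nearest to Trp63 were Wnt10a (0.36), a Wnt ligand, and Moxd1 (0.51). Nearest to Sox2 were Prom2 and Plch1 (both 0.22), to Klf5 Rdh10 (0.13) and Esrp2 (0.17), and to Tfap2a Trim59 (0.15). Nearest to Grhl1 were the adhesion protein Nectin4 (0.22) and Sectm1b (0.25), to Ovol1 Muc20 (0.24) and desmoplakin, Dsp (0.28), and to Zfp750 Sptssb (0.33) and Ttc22 (0.39). Trp63 and Zfp750 had no gene as close as the others had. Wnt10a differed by 7.55 between the groups, and Nectin4 by 3.08. The measure mainly follows the size of the difference between the groups, which all these genes share with the member.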

How the data were processed

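Total RNA of 5 WT lungs and 5 lung SCCs was labelled with Cy3 and hybridised by the authors to Agilent 4 x 44K whole mouse genome arrays, 1 array per sample, and read with Agilent Feature Extraction (version 12 per the submitters' processing notes). The deposited scanner files give each spot a processed intensity, background-subtracted and linear, and flags. The deposited series matrix holds log2 values, which ranked probes as the scanner intensities did (Spearman at least 0.99999 on 9 arrays, 0.999986 on WT replicate 3), with an array median of 7.2 throughout, and was used as an alternative and to choose the probe of highest mean. The authors' methods name quantile normalization, log2 transformation and one-way ANOVA.

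Control and outlier spots were left out, spots of a probe averaged, intensities quantile-normalized and log2-transformed. Of 41174 probes, 28223 (68.5%) had a gene symbol through RefSeq (GRCm38.p6), matched by accession. Probes well above background on at least 4 arrays of a group were tested with limma 3.58.1 (R 4.3.3; lmFit, eBayes, Benjamini-Hochberg over 30374 probes), without covariates. Groups came from sample titles. Nothing in the labels ties replicates to litters. The limma p-values set the difference between the groups against the spread within them, for these samples alone. Replicate numbers did not pair samples. The number of arrays limits the precision. Named genes were all members, all genes of lists under 13 genes, the 3 largest and 3 smallest differences of longer lists and the 2 nearest profiles, with markers as a check of the tissue; some genes that this rule names are not reported here. Members, lists and pairs were chosen with earlier results of these data known. Grhl1 and Grhl2 replaced 2 pairs with Grhl3. The alternative with normexp added an offset of 50 and used the median spot intensity in place of the mean. Such an offset shrinks log2 differences of dim probes, and its part in the values given with normexp was not tested. The scripts were tested on simulated data.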

Additional observations from a re-analysis of the deposited data

Results flagged for a closer look

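In 124 groups of 5 arrays, those of the members, the pairs and the named genes of the lists, 29 had a highest or lowest array whose gap to the nearest other array was over 0.71 of the whole range of the group, where chance gives about 1 in 20. Of these, 20 were on SCC replicate 2, 4 on WT replicate 4, 3 on WT replicate 2 and 1 each on WT replicate 5 and SCC replicate 4.

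Among the members, SCC replicate 2 was low for Pitx1 (gap 0.929), Tfap2c (0.858), Grhl1 (0.80) and the dimmer Grhl1 probe (0.858). WT replicate 5 was high for Pitx1 (0.84), WT replicate 4 low for Ovol1 (0.762) and WT replicate 2 high for the dimmer Trp63 probe (0.743), which was below background there. Of the basal genes, SCC replicate 2 was low for Krt5 (0.879), Krt14 (0.894) and Pkp1 (0.885), and WT replicate 4 was high for Krt14 (0.729). Of the late genes, SCC replicate 2 was low for Sprr1b (0.896), Cnfn (0.914) and Krtdap (0.94), and WT replicate 4 was high for Sprr1b (0.952), all below background there. Outside the named genes, only the SCC arrays of the basal and late lists were read for a low SCC replicate 2, which stood apart in this way for 3 of 10 other basal genes (Itga6, Col17a1 and Perp) and 6 of 11 other late genes (Tgm1, Lor, Evpl, Ppl, Casp14 and Spink5).

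Of the relatives and lung lineage factors, SCC replicate 2 was low for Sox15 (0.716), Klf4 (0.839) and Klf6 (0.789) and high for Foxa3 (0.716) and Gata6 (0.711), and SCC replicate 4 was low for Sox9 (0.755). Of the epithelial genes, SCC replicate 2 was high for Epcam (0.755) and Krt8 (0.713) and low for Cldn4 (0.752), and WT replicate 2 was low for St14 (0.727). Of the pairs, SCC replicate 2 was high for Tfap2a minus Tfap2c (0.836) and low for Grhl1 minus Grhl2 (0.773), WT replicate 2 was low for Klf5 minus Klf4 (0.729) and WT replicate 4 low for Ovol1 minus Ovol2 (0.824).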

How the results depend on the processing

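The differences of the 9 members kept their sign in all alternatives run. With slide as a fixed block Tfap2c (5.31, adjusted p 0.054) and Grhl1 (2.32, adjusted p 0.128) no longer passed, and 2988 probes were called in all, 1402 higher and 1586 lower, against 6954 (3014 and 3940) without the block, with 1 late gene, 3 relatives and 0 lung lineage factors higher and 1 lineage factor lower; this fit compares SCC replicates 1 to 3 with 1 WT array. With normexp 3969 were called (1909 and 2060), with 0 basal genes lower and 1 lineage factor higher. With adjusted p alone 14878 were called (6790 and 8088), with 2 basal genes and 2 relatives lower. With probes above background on all 10 arrays only, 8 late genes and 1 lineage factor were called higher, and Pitx1 and Tfap2c gave no value. The count of lineage factors called higher was also 1 with an ordinary equal-variance test in place of limma, before and after Benjamini-Hochberg, without a filter on dim probes and with the replicate block, and 1 to 2 without 1 replicate. All 9 members passed without any 1 replicate (Pitx1 and Tfap2c were tested through SCC alone and had to differ), with differences of 7.31 to 7.65 for Trp63, 4.87 to 5.95 for Tfap2c and 2.82 to 3.53 for Grhl1. The Grhl1 and Grhl2 pair, added after seeing the data, ranged from 1.46 to 2.29 without 1 array and did not pass without SCC replicate 1, 3, 4 or 5, adjusted p up to 0.0873.

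The replicate block left all 7 members tested through both groups passing (Trp63 7.44, adjusted p 0.00033). Pitx1 and Tfap2c, tested through SCC alone, had to differ and are not counted. The deviations of same-numbered samples correlated at -0.099 to 0.0093, and 0 of 5 numbers had its own partner as the best, so the block pairs unrelated samples. The 75th percentile scaling moved the median of all tested probes from -0.09 to 0.03 and turned no listed gene. Of the results and settings compared, 616 stayed as they were, 30 moved and 6 no longer passed. Signal over background limits the fold of Pitx1, Tfap2c, the dimmer Trp63 probe, Sox21, Pkp1, Krtdap, Sprr1b and Foxa3, whose WT level is a bound on most or all arrays.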
